A study of Mus musculus with 6 samples.

Results

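The 10 Toll-like receptors (TLRs) *Tlr1* to *Tlr9* and *Tlr13* were described in WT and *lincRNA-EPS* knockout (KO) osteoclast precursors. They were taken by gene name from the 57180 genes of the count table, and all 10 passed the filter on low counts that kept 13428 genes for testing. *Tlr5*, the receptor for bacterial flagellin, and *Tlr9*, the receptor for CpG-rich DNA, were the 2 receptors with every KO library below every WT library in TMM-scaled counts, which held for 18.8% of all tested genes. Their levels were 1.84-fold and 1.61-fold higher in WT than in KO. Neither passed the limits set for the comparison of genotypes, and no member did. The other 8 receptors differed by at most 1.22-fold in level between genotypes before a correction for GC content.

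Toll-like receptors are membrane proteins of innate immune cells that recognise conserved microbial molecules through a leucine-rich ectodomain and signal through a cytoplasmic TIR domain. Those on the cell surface bind lipids and proteins of microbes, while those in endosomes bind nucleic acids after proteases have cut the receptor. All except TLR3 signal through the adaptor MyD88, and TLR3 and TLR4 signal through TRIF, with NF-κB, AP-1 and interferon regulatory factors as the transcription factors at the end. In the osteoclast lineage, TLR ligands are known to restrain differentiation when they reach cells before RANKL and to promote it in cells that RANKL has already primed.

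Bone marrow-derived macrophages of wild-type C57BL/6 mice and of *lincRNA-EPS*-/- mice were the source of 3 libraries per genotype, with the age and sex of the donors not given for these cultures in the sources used here. The KO line is named with C57BL/6 wild-type mice in the study's in vivo model, whose mice were male. LincRNA-EPS is a long intergenic noncoding RNA known in macrophages as a restraint on inflammatory genes. All 6 cultures received 40 ng/ml M-CSF for 24 h, the growth factor of macrophages, and then 40 ng/ml RANKL, the cytokine that commits them to the osteoclast lineage, for 48 h. None received a TLR ligand. The poly(A) libraries came from a stranded kit. The study describes the replicates of its in vitro work as biological, from single mice or independent cultures, and which of these the 3 libraries of a genotype are is not stated for them. The p-values measure the spread between these libraries.

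The libraries held 17757351 to 19998611 estimated counts each, and 3 counts, taken as the floor, were worth 0.150 to 0.169 CPM, the count of a gene per 1000000 counts of a library. The floor covers counting error only, whereas the SE and 95% intervals of fold changes below come from edgeR's fit and include the spread between libraries. Where a GC correction is named, the spread along GC content is taken out first. LincRNA-EPS (*Ttc39aos1*) had 20, 37 and 41 counts in the WT libraries and 0 counts in each KO library, as the labels say. The summed level of 8 macrophage markers overlapped between genotypes, at 16881 to 17977 CPM in WT and 15213 to 17903 CPM in KO, but *Lyz2* made up most of it. For 5 of the 8 (*Csf1r*, *Adgre1*, *Itgam*, *Mertk* and *Fcgr1*) every KO library lay below every WT library, as for 18.8% of all genes, with log2 fold changes of -0.64 (*Fcgr1*) to -0.25 (*Itgam*), and their part in the values of the receptors was not tested. All 11 osteoclast precursor markers were detected in every library, with *Mmp9* the highest, and their sum was higher in KO (7003 to 7419 CPM) than in WT (5252 to 5678 CPM), with 6 of the 11 not overlapping, all higher in KO, as for 16.9% of all genes.

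Genotypes were compared with edgeR's quasi-likelihood test over all 13428 genes, with Benjamini-Hochberg adjusted p-values, an adjusted p limit of 0.01 and a fold limit of 1.3. Of all tested genes 0.00745% passed both limits, which was 1 gene. LincRNA-EPS itself, with 0 counts in each KO library, did not pass (adjusted p = 0.120 by the same test). Not passing the limits therefore does not show that a gene is unchanged. Of the 10 receptors, 0 passed, 9 had a log2 fold change below 0 against 49.0% of all genes, and 2 were lower in KO at an unadjusted p under 0.05 against a background of 13.2%. The median log2 fold change of the 10 was -0.077, while that of all tested genes was 0.009. In bulk RNA, fewer cells of a type and less RNA per cell cannot be told apart.

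**Figure D1:**
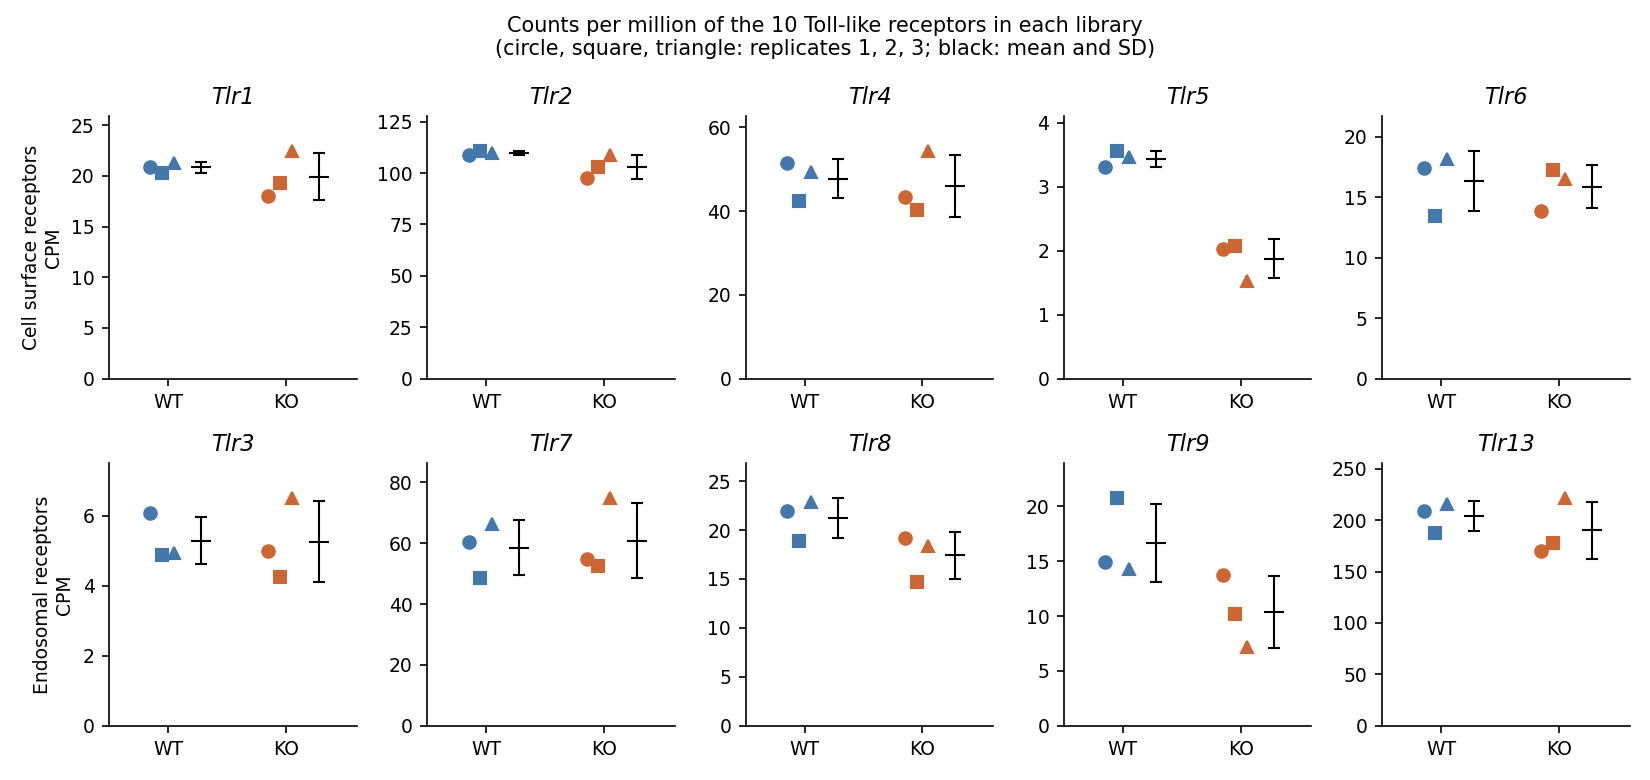
CPM (vertical axis, from 0) of each receptor in the WT (blue) and KO (orange) libraries, with symbols for replicates 1, 2 and 3 and the mean and SD of 3 libraries in black. *Tlr5* and *Tlr9* are the only panels in which every KO point lies below every WT point.

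*Tlr5* had the smallest p of the family. This gene lies at chr1:182954788-182976044 on the plus strand (GRCm38, GENCODE M21). Its levels were 3.31, 3.56 and 3.46 CPM in the WT libraries and 2.03, 2.07 and 1.53 CPM in the KO libraries, from 66, 65 and 66 counts against 39, 36 and 30. The groups did not overlap, as for 18.8% of tested genes in this direction, and the WT libraries were close together. The mean was 3.44 ± 0.125 CPM (SD, n = 3) in WT and 1.88 ± 0.303 CPM in KO. The log2 fold change was -0.88 (SE 0.20, 95% interval -1.32 to -0.43, adjusted p = 0.147 by edgeR's quasi-likelihood test). It ranked at place 138 of all tested genes by p. The counts behind it were the lowest of the family, and counting alone gives a coefficient of variation of 12.3% to 18.3% per library.

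*Tlr9*, at chr9:106222598-106226883 on the plus strand, was the other receptor whose genotypes did not overlap. The WT libraries had 14.9, 20.8 and 14.3 CPM and the KO libraries 13.7, 10.2 and 7.18 CPM. Library 2 stood highest in WT and library 3 lowest in KO, and the highest KO value was close to the lowest WT value. Mean levels were 16.7 ± 3.58 CPM (SD, n = 3) in WT and 10.4 ± 3.29 CPM in KO. The log2 fold change was -0.68 (SE 0.24, 95% interval -1.23 to -0.14, adjusted p = 0.153 by edgeR's quasi-likelihood test). Its spread within each genotype was wider than that of *Tlr5* relative to the mean.

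*Tlr8*, an endosomal relative of the RNA receptor TLR7, lies at chrX:167242696-167264329 on the minus strand, next to *Tlr7*. It had 21.9, 18.9 and 22.9 CPM in WT and 19.2, 14.7 and 18.4 CPM in KO. The groups overlapped through KO library 1, and the log2 fold change was -0.28 (SE 0.14, 95% interval -0.60 to 0.032, adjusted p = 0.221 by edgeR's quasi-likelihood test).

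Promoter sequences of these 3 receptors are shown because they had the lowest KO to WT ratios. Each runs 5′ to 3′ on the gene's strand from 250 bases before to 50 bases after a RefSeq start (GRCm38.p6), and capitals mark matches, on either strand, to an ISRE core (GAAANNGAA), a GAS element (TTCNNNGAA), an NF-κB core (GGGANTTTC), an AP-1 site (TGANTCA) or a PU.1 site (GAGGAAGT). The *Tlr5* window is chr1:182954538-182954837 (plus strand), the *Tlr9* window chr9:106222348-106222647 (plus strand) and the *Tlr8* window chrX:167264280-167264579 (minus strand).
Tlr5: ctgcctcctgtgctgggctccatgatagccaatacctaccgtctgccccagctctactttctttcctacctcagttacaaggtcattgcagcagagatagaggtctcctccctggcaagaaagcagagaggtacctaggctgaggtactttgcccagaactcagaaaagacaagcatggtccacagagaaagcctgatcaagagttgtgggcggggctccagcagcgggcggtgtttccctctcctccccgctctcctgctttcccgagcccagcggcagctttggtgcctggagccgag
Tlr9: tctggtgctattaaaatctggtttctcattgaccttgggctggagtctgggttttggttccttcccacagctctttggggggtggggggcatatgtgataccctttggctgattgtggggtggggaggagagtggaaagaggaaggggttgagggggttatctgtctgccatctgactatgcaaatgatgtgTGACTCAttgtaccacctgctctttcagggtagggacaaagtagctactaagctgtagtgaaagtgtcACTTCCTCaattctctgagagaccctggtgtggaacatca
Tlr8: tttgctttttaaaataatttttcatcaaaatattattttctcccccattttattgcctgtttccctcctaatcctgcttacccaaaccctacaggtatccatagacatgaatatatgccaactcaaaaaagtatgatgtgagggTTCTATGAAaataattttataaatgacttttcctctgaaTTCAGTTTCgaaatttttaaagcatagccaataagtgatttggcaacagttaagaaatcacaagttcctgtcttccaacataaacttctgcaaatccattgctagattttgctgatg
The *Tlr5* window held none of these letters. The *Tlr9* window held an AP-1 match starting 58 bases before the start and a PU.1 match 10 bases after it, and no CpG. The *Tlr8* window held a GAS match 106 bases and an ISRE match 67 bases before the start, with a GC content of 32.3% against a median of 52.7% for all 32851 promoters of this length. RefSeq windows were given for 8 of the 10 receptors (10 windows), with no entry for *Tlr4* and *Tlr7*. The ISRE letters also occurred in *Tlr6*, as 2 overlapping matches, so that 2 of 10 windows held them against 8.56% of all promoters. GAS letters were in 3 of 10 windows (*Tlr1*, *Tlr6* and *Tlr8*) against 8.30%, PU.1 letters in 2 (*Tlr1* and *Tlr9*) against 3.20%, NF-κB letters in 1 (*Tlr3*) against 1.11%, and AP-1 letters in 1 (*Tlr9*) against 7.81%. The windows of *Tlr2* and *Tlr13* held none. A match is a description of letters and does not show that a factor binds there.

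The remaining surface receptors were *Tlr4*, the lipopolysaccharide receptor, *Tlr2*, which binds bacterial lipoproteins, and its partners *Tlr1* and *Tlr6*. *Tlr4* (chr4:66827584-66930284, plus strand) had 51.5, 42.5 and 49.4 CPM in WT and 43.4, 40.3 and 54.5 CPM in KO. KO library 3 was the highest of all 6 and KO library 2 the lowest. The log2 fold change of *Tlr4* was -0.052 (SE 0.14, 95% interval -0.36 to 0.26, adjusted p = 0.822 by edgeR's quasi-likelihood test), an interval that leaves room for a change of either sign. *Tlr2* (chr3:83836272-83841767, minus strand) was the most even member, with 109, 111 and 110 CPM in WT and 97.4, 103 and 109 CPM in KO. Its groups overlapped by KO library 3 alone, and its log2 fold change was -0.090 (SE 0.087, adjusted p = 0.516 by edgeR's quasi-likelihood test).

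*Tlr1* (chr5:64924679-64933563) and *Tlr6* (chr5:64952031-64960097) are neighbours on the minus strand of chromosome 5 and share sequence. Of the 75-base windows of the longest *Tlr1* transcript 340 (11.5%) also occur in that of *Tlr6*, and no other pair of receptors shared any. Their estimated counts were not whole in any of the 6 libraries, while those of the other 8 receptors were whole in all 6. The 2 counts added up to a whole number in every library (763, 617 and 752 in WT, 612, 636 and 767 in KO), so reads were divided between them. *Tlr1* had 20.9, 20.3 and 21.3 CPM in WT and 18.0, 19.3 and 22.5 CPM in KO. *Tlr6* had 17.4, 13.5 and 18.2 CPM in WT and 13.9, 17.3 and 16.5 CPM in KO. Both pairs of groups overlapped, and the log2 fold changes were -0.063 (SE 0.12) for *Tlr1* and -0.041 (SE 0.15) for *Tlr6*. As 1 feature the pair gave -0.053 (SE 0.12, adjusted p = 0.787 by edgeR's quasi-likelihood test), which does not depend on how the reads were divided.

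Among the endosomal receptors, *Tlr13*, which in mice recognises bacterial ribosomal RNA, lies at chrX:106143204-106160493 on the plus strand and had 209, 188 and 216 CPM in WT and 170, 178 and 222 CPM in KO. *Tlr7* (chrX:167304929-167330558, minus strand), the receptor for uridine-rich RNA, had 60.4, 48.7 and 66.4 CPM in WT and 54.8, 52.6 and 75.0 CPM in KO. In both genes KO library 3 was the highest of all 6 libraries. The log2 fold changes were -0.10 (SE 0.12, 95% interval -0.38 to 0.17) for *Tlr13* and 0.056 (SE 0.16, 95% interval -0.32 to 0.43) for *Tlr7*, the only receptor above 0. *Tlr3* (chr8:45395665-45411080, minus strand), which senses viral RNA duplexes, had 6.07, 4.87 and 4.93 CPM in WT and 5.0, 4.26 and 6.52 CPM in KO, with a log2 fold change of -0.007 (SE 0.20). An antisense gene overlaps its first part, and whether counting used the strand is not given in the sources used here. The adjusted p-values of *Tlr13*, *Tlr7* and *Tlr3* were 0.589, 0.843 and 0.985 by edgeR's quasi-likelihood test.

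The fold changes of these libraries followed base composition, in which the receptors differ. Over the 13176 tested genes with a GC value, the log2 fold change and the GC content of the longest transcript had a Pearson correlation of -0.510, given as a description across genes that share libraries. The 1859 genes under 42% GC had a median log2 fold change of 0.29, and the 2724 genes over 55% GC one of -0.29. *Tlr4* (39.4% GC), *Tlr3* (40.0%), *Tlr8* (40.1%), *Tlr7* (41.0%) and *Tlr13* (43.6%) lie below the lower quartile of 44.4%, whereas *Tlr9* (56.2%) lies above the upper quartile of 54.1%. *Tlr1* (45.1%), *Tlr6* (45.6%), *Tlr5* (47.6%) and *Tlr2* (49.3%) lie between. Libraries of the same genotype differed too. Of the KO libraries, library 3 was the highest for *Tlr7* (75.0 CPM) and the lowest for *Tlr9* (7.18 CPM). Of the WT libraries, library 2 was the lowest for *Tlr7* (48.7 CPM) and the highest for *Tlr9* (20.8 CPM). A trend with GC content within genotypes was not tested.

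**Figure D2:**
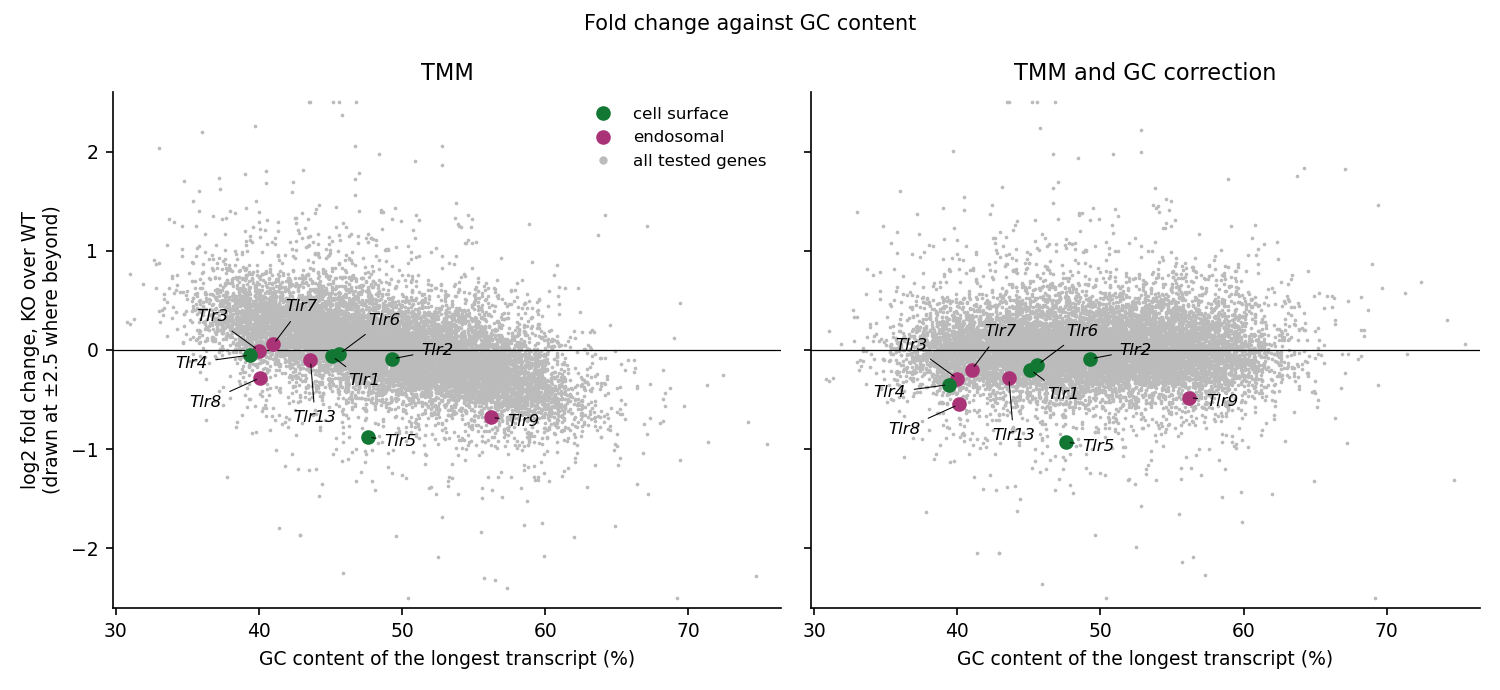
The log2 fold change (KO over WT, vertical axis) of all tested genes (grey) and of the receptors (green: cell surface, purple: endosomal) against the GC content of the longest transcript in percent (horizontal axis), before (left) and after (right) a GC correction. The grey cloud slopes down on the left, where *Tlr4*, *Tlr3*, *Tlr8*, *Tlr7* and *Tlr13* lie in its lower part, and is level on the right, where all 10 receptors lie below 0.

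A fit with a GC correction, in which a smooth curve of GC content per library (natural spline, 5 df) enters as an offset, removed this trend and left a correlation of -0.0152. It takes away any difference that follows GC content, and a technical and a cellular source of the trend cannot be told apart here. Its curve enters as known, so the corrected SE and intervals leave out the uncertainty of the curve. After the correction, 10 of 10 receptors had a log2 fold change below 0 (50.9% of all genes). Of these, 7 were lower in KO at an unadjusted p under 0.05, against 13.8% of all genes. The median of the 10 was -0.29 against -0.006 for all genes. Still 0 of 10 passed the limits, against 0.0223% of all genes, with adjusted p-values of 0.0556 to 0.446 by edgeR's quasi-likelihood test. At an adjusted p limit of 0.05 with the same fold limit 0 of 10 passed as well, against 0.879%. The 5 endosomal receptors had a median of -0.29 and the 5 surface receptors one of -0.20, values that were -0.10 and -0.063 without the correction; the difference between the 2 classes was not tested.

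The estimate of *Tlr4* shifted most with this step. Its GC-corrected levels were 53.4, 53.6 and 51.8 CPM in WT and 43.6, 39.1 and 41.4 CPM in KO. The overlap of the uncorrected values was gone, and the spread within WT was 0.996 CPM (SD, n = 3) where it had been 4.74 CPM. The corrected log2 fold change was -0.35 (SE 0.071, 95% interval -0.52 to -0.19, adjusted p = 0.0556 by edgeR's quasi-likelihood test). With DESeq2 and the same correction *Tlr4* had an adjusted p of 0.00830, past the p limit and not past the fold limit.

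*Tlr8* had 22.6, 23.5 and 24.0 CPM in WT and 19.3, 14.4 and 14.3 CPM in KO after the correction. All KO values lay below all WT values, and the log2 fold change was -0.55 (SE 0.12, 95% interval -0.83 to -0.27, adjusted p = 0.0630 by edgeR's quasi-likelihood test). *Tlr8* was also the single receptor to pass the limits in any fit of all 6 libraries, with DESeq2 and the same GC correction (adjusted p = 0.00508), where 1.53% of all genes with an adjusted p passed as lower in KO. *Tlr13* had 214, 214 and 223 CPM in WT against 170, 176 and 189 CPM in KO, and a corrected log2 fold change of -0.28 (SE 0.065, adjusted p = 0.0639 by edgeR's quasi-likelihood test).

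*Tlr5*, with a GC content near the middle of the range, hardly moved. Its corrected log2 fold change was -0.93 (SE 0.19, 95% interval -1.36 to -0.51, adjusted p = 0.0582 by edgeR's quasi-likelihood test). *Tlr9*, rich in GC, moved the other way, to -0.48 (SE 0.16, 95% interval -0.84 to -0.11, adjusted p = 0.119). *Tlr1*, *Tlr7*, *Tlr3*, *Tlr6* and *Tlr2* had corrected values of -0.20, -0.20, -0.29, -0.15 and -0.090. Without overlap between the groups were 7 of 10 receptors after the correction, all lower in KO, against 17.4% of all genes, with *Tlr2*, *Tlr6* and *Tlr7* overlapping.

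**Figure D3:**
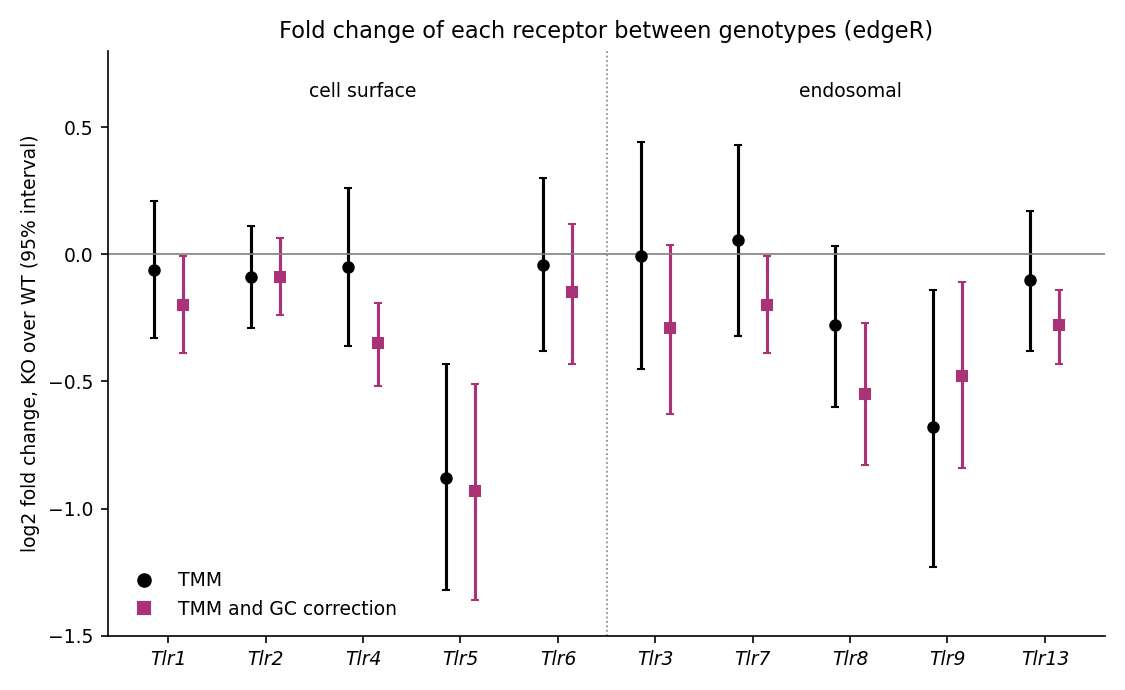
The log2 fold change of each receptor (KO over WT, vertical axis) with its 95% interval from edgeR, with TMM scaling alone (black circles) and with the GC correction added (purple squares). With TMM alone the intervals of *Tlr5* and *Tlr9* lie below 0; with the correction those of *Tlr1*, *Tlr4*, *Tlr5*, *Tlr7*, *Tlr8*, *Tlr9* and *Tlr13* do.

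These counts were recomputed with each library left out. Without the correction, 1 to 4 receptors were lower at an unadjusted p under 0.05 (5.60% to 16.7% of all genes), with 1 (*Tlr5*) without KO library 2 and 4 (*Tlr5*, *Tlr8*, *Tlr9* and *Tlr13*) without KO library 3. The number below 0 was 6 to 10, with 6 without WT library 1 and without KO library 1, and the median was -0.19 to -0.018. With the correction, all 10 stayed below 0 in each of the 6 cases and 4 to 7 were lower at that p (8.35% to 16.4% of all genes), the 4 being *Tlr4*, *Tlr5*, *Tlr8* and *Tlr13* without KO library 2. *Tlr8* alone passed the limits without KO library 1 (log2 fold change -0.71, adjusted p = 0.00939 by edgeR's quasi-likelihood test with the correction). In that fit 89 of all genes passed, against 3 with all 6 libraries.

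Levels of different receptors were compared per length, as TPM, the transcripts of a gene per 1000000 transcripts, computed from the estimated counts and the longest transcript. *Tlr13* stood highest at 102 to 130 TPM over the 6 libraries, followed by *Tlr2* at 79.0 to 94.0 TPM. Together they made up 61.9% to 64.4% of the summed TPM of the 10 receptors in every library. *Tlr7* (31.2 to 43.1 TPM) and *Tlr4* (22.9 to 31.3 TPM) came next, with ranges that overlapped by a narrow margin although *Tlr7* was above *Tlr4* in 6 of 6 libraries.

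*Tlr1* followed at 14.5 to 17.2 TPM, *Tlr8* at 9.88 to 16.3 TPM, *Tlr6* at 9.24 to 12.1 TPM and *Tlr9* at 4.63 to 15.3 TPM, each overlapping its neighbour. *Tlr8* was above *Tlr6* in 5 of 6 libraries and *Tlr6* above *Tlr9* in 4 of 6, so the order of these 3 is not fixed by the data. *Tlr3* (2.23 to 3.41 TPM) and *Tlr5* (0.897 to 2.39 TPM) were the lowest, below every value of the other 8. *Tlr13* ranked at place 1368 and *Tlr5* at place 11418 of 51884 genes with a length. The summed level of the family was 332 to 351 TPM in WT and 281 to 324 TPM in KO. This sum rests mostly on *Tlr13* and *Tlr2*, neither of which passed the limits. On the TPM scale 5 receptors (*Tlr1*, *Tlr2*, *Tlr5*, *Tlr8* and *Tlr9*) had every KO library below every WT library, against 24.7% of the 13176 tested genes with a length. The median log2 TPM difference of these genes, KO minus WT, was -0.093, so the scale itself lies lower in KO than that of the TMM-scaled counts.

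**Figure D4:**
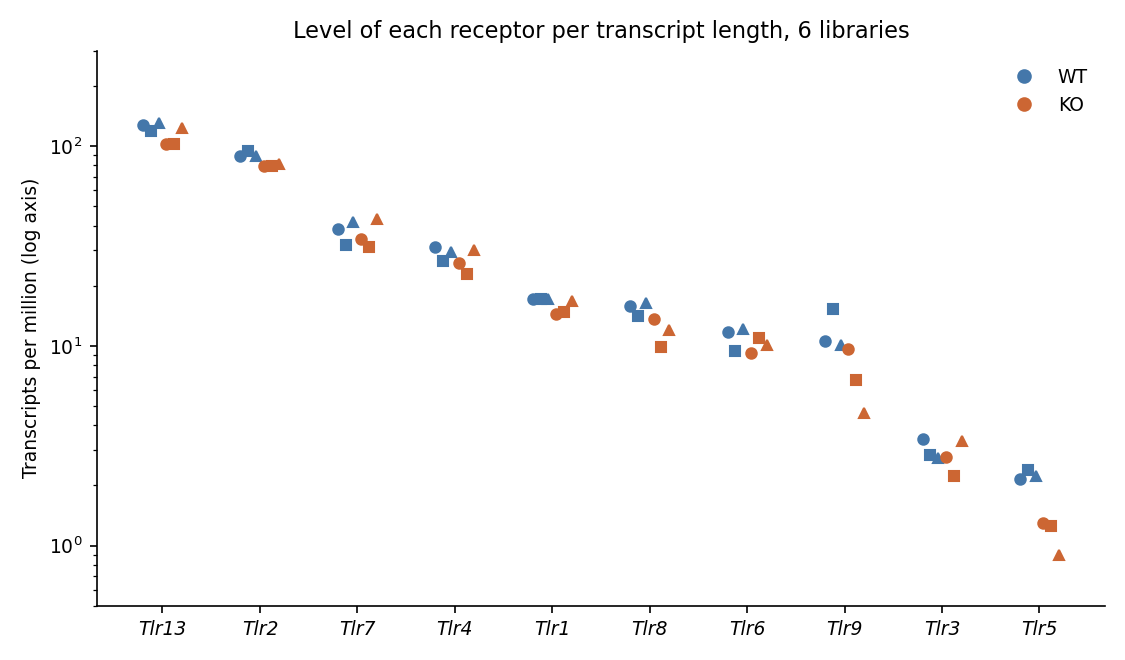
TPM (vertical log axis) of the 10 receptors, ordered by their mean, in 3 WT (blue) and 3 KO (orange) libraries, with circles, squares and triangles for replicates 1, 2 and 3. *Tlr13* and *Tlr2* stand above all others, *Tlr3* and *Tlr5* below, and the KO points of *Tlr1*, *Tlr2*, *Tlr5*, *Tlr8* and *Tlr9* lie below their WT points.

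Likeness of pattern was measured as the root mean square difference of log2 CPM over the 6 libraries, each gene centred on its own mean. *Tlr1* and *Tlr13* were the closest pair (0.0536), and *Tlr5* and *Tlr9* were 0.236 apart. The 2 genes outside the family closest to *Tlr5* were *Cdkn1c*, an inhibitor of cyclin-dependent kinases, and *Oas3*, an antiviral enzyme of the interferon response, at 0.0475 and 0.0796. *Cdkn1c* had 43.3, 45.4 and 41.2 CPM in WT and 26.2, 26.5 and 20.8 CPM in KO. Both genes were chosen for their likeness to *Tlr5* over these libraries, so the values that follow are a description fixed by that choice. The log2 fold changes were -0.82 (SE 0.12) for *Cdkn1c* and -0.86 (SE 0.12) for *Oas3*.

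The rest of the pathway was counted in lists ordered from the receptor to its products. None of their genes passed the limits with edgeR, with or without the GC correction. Of 20 accessory and trafficking genes, 2 were higher and 6 lower in KO at an unadjusted p under 0.05 (background 13.0% and 13.2%), with a median log2 fold change of -0.094. *Slc15a4*, an endolysosomal transporter needed by endosomal TLRs, had a log2 fold change of -0.52 (SE 0.13), *Pld4*, a nuclease that trims their ligands, -0.44 (SE 0.11) and *Cnpy3*, a chaperone of TLR folding, -0.41 (SE 0.13), each with an adjusted p of 0.147 by edgeR's quasi-likelihood test. After the GC correction 0 of the 20 were higher and 4 lower (background 12.0% and 13.8%). Of 21 adaptors and kinases, 1 was higher and 2 were lower, with a median of -0.019. *Ikbke*, which phosphorylates interferon regulatory factors, had -0.34 (SE 0.10), and the partners of the kinase TAK1 *Tab1* and *Tab3* had -0.43 (SE 0.16) and 0.33 (SE 0.13). After the GC correction *Tab1*, *Tab3*, *Cnpy3* and *Pld4* had -0.14, 0.10, -0.14 and -0.24, and of the 21 genes 0 were higher and 3 lower.

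The transcription factors below the receptors were the list with the lowest median, -0.43 over 14 genes, with 10 lower and 0 higher at an unadjusted p under 0.05 (background 13.2% and 13.0%). After the GC correction the median was -0.27, with 7 lower and 1 higher (background 13.8% and 12.0%). KO library 3 stood apart in some of the 14 genes, as in *Cebpb* with 70.9, 61.8 and 8.55 CPM in the KO libraries. In others, such as *Irf7*, the KO libraries lay close together. *Irf7*, the interferon regulatory factor that TLR7 and TLR9 activate, had 16.4, 16.9 and 17.8 CPM in WT and 7.81, 8.97 and 7.74 CPM in KO. Its groups stood apart, with a log2 fold change of -1.06 (SE 0.12, adjusted p = 0.0635 by edgeR's quasi-likelihood test, 0.0218 after the GC correction). *Jun*, a subunit of AP-1, had -0.65 (SE 0.15, adjusted p = 0.147) and *Atf3*, a repressor induced by TLR signals, -0.49 (SE 0.090, adjusted p = 0.136) by the same test. With DESeq2 these 3 genes passed the limits as lower in KO (adjusted p = 1.09e-07 for *Irf7*, 0.00928 for *Jun* and 0.000674 for *Atf3*). Of 10357 genes with an adjusted p, 1.22% passed in either direction, and 72 genes passed as lower in KO.

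Of 20 genes that restrain TLR signals, 1 was higher and 2 were lower in KO at that p (background 13.0% and 13.2%), with a median of -0.076. After the GC correction 2 were higher and 5 lower (background 12.0% and 13.8%), with a median of -0.053. *Tank*, an adaptor that limits TRAF6 signals, had a log2 fold change of 0.51 (SE 0.17), which was 0.17 after the correction, and *Trafd1* and *Irak3*, both feedback inhibitors, had -0.39 (SE 0.12) and -0.28 (SE 0.11). Of 23 response genes 18 were tested, of which 3 were higher and 1 lower both without and with the correction, with a median of 0.19 that was 0.070 after it. *Il1b*, the inflammatory cytokine, had 5.22, 5.14 and 5.35 CPM in WT and 7.24, 10.1 and 8.96 CPM in KO, a log2 fold change of 0.74 (SE 0.16, adjusted p = 0.147 by edgeR's quasi-likelihood test). *Cxcl2*, a neutrophil chemokine, had 0.66 (SE 0.18), while *Acod1*, which makes itaconate, had -0.32 (SE 0.10). Of 10 IL-1 receptor relatives 7 were tested, with 2 higher and 0 lower, and with 2 higher and 2 lower after the correction. *Il1r2*, a decoy receptor without the TIR domain, had 34, 34 and 36 counts in WT and 63, 66 and 78 in KO, with a log2 fold change of 1.02 (SE 0.19, adjusted p = 0.136), and *Il1r1*, the signalling receptor, 0.97 (SE 0.26, adjusted p = 0.147) by edgeR's quasi-likelihood test. *Il18rap*, a subunit of the IL-18 receptor, had 0.30 (SE 0.13), which was 0.17 after the correction.

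**Figure D5:**
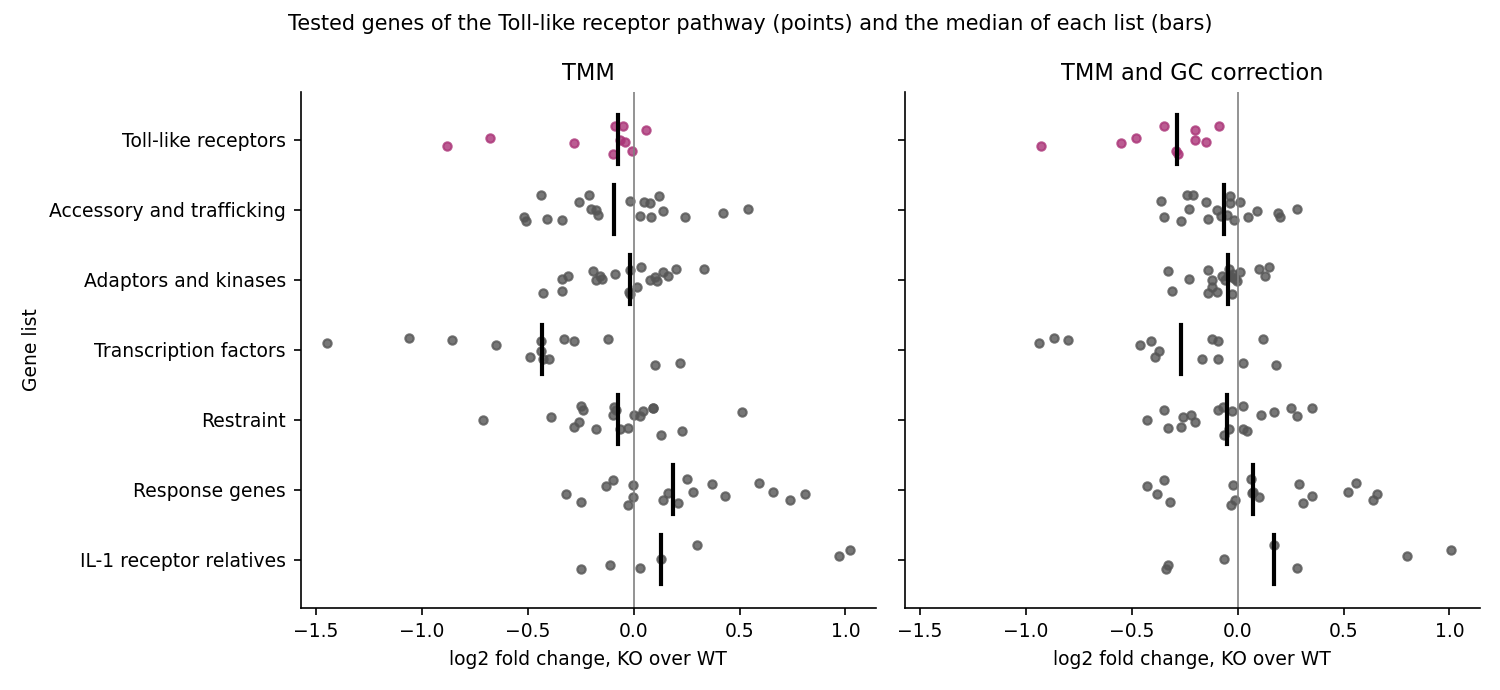
The log2 fold change (KO over WT, horizontal axis) of each tested gene of the receptors (purple) and of 6 pathway lists (grey), with the median of each list as a black bar, with TMM (left) and with the GC correction added (right). The median of the receptors moves from -0.077 to -0.29, and that of the transcription factors from -0.43 to -0.27.

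Markers of other cells that carry TLRs moved with genotype in part. The summed level of 11 neutrophil markers was 1285 to 1443 CPM in WT and 1714 to 2053 CPM in KO, with *S100a9* the highest and the defining marker *Ly6g* at 0 to 5 counts. Of the 11, 6 had every KO library above every WT library, against 16.9% of all genes (*S100a8*, *S100a9*, *Retnlg*, *Ltf*, *Ngp* and *Cxcr2*), and 2 had every KO library below, against 18.8% (*Elane* and *Mpo*, with log2 fold changes of -0.33 and -0.42). The sum of 6 dendritic cell markers was 12.6 to 16.5 CPM in WT and 17.1 to 19.0 CPM in KO, while 0 of the 6 taken singly were without overlap. For plasmacytoid dendritic cells, which use TLR7 and TLR9, the sum of 5 markers overlapped (36.3 to 37.6 CPM in WT, 35.5 to 50.8 CPM in KO), with *Klk1* at 0 in all libraries and *Siglech* and *Ccr9* higher in every KO library than in every WT library. For B cells, which also carry TLR9, 6 markers summed to 6.61 to 8.07 CPM in WT and 7.99 to 9.43 CPM in KO. The sums of T and NK cell, erythroid and stromal markers overlapped. The stromal *Col1a2* was lower in every KO library, against 18.8% of all genes, and *Lepr* (at most 5.05 counts) higher, against 16.9%. The sum of mast cell and basophil markers was higher in KO (2.75 to 3.28 CPM) than in WT (0.876 to 1.63 CPM). The part of these cells in the values of the receptors was not tested.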

How the data were processed

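RNA was sequenced from RANKL-primed OCPs of WT and KO mice, with 3 libraries per genotype. The authors deposited a table of estimated counts per gene, not normalized and partly not whole. The submitters' processing notes name fastp, HISAT2, StringTie and RSEM and the build GRCm39, with versions and annotation not given in the sources used here. The authors' mean per genotype was not used. Counts were rounded to integers and analysed in R 4.3.3 with edgeR 4.0.16 (filterByExpr, TMM, glmQLFit with legacy = FALSE, glmQLFTest, Benjamini-Hochberg adjustment over all tested genes). DESeq2 1.42.0 and limma 3.58.1 served as alternatives, and scripts were tested on simulated data. CPM were scaled by TMM, and GC-corrected CPM use log2 values with a prior count of 2. The libraries held 17757351 to 19998611 counts.

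GC content, length and positions came from GENCODE M21 on GRCm38, whereas the counts were made on GRCm39. Promoters came from RefSeq. Protein sequences were not used here. The receptors and the gene lists were chosen with earlier results of these data known. The text names all 10 receptors, lincRNA-EPS, the 3 genes with the smallest p in each pathway list, the 3 genes outside the family closest to the receptor with the smallest p (1 of them is not reported here), and the highest marker of a cell type. *Cebpb*, *Ly6g*, *Klk1*, *Siglech*, *Ccr9*, *Col1a2*, *Lepr* and the macrophage and neutrophil markers below the highest were named after their values were seen. With 3 libraries per group an exact two-sided permutation test cannot go below p = 0.1, so none was run. The alternatives were other scalings and filters, DESeq2, limma-voom, edgeR's legacy test, a GC correction, the replicate number as a block, and each library left out.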

Additional observations from a re-analysis of the deposited data

How the results depend on the processing

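*Tlr2*, *Tlr5*, *Tlr8*, *Tlr9* and *Tlr13* were lower in KO in all 24 fits, with log2 fold changes of -0.14 to -0.046, -1.02 to -0.75, -0.71 to -0.18, -0.94 to -0.36 and -0.33 to -0.027. *Tlr7* changed sign with the GC correction (-0.20), with the GC correction and DESeq2 (-0.20) and with the GC correction and the replicate block (-0.20). With libraries left out, log2 fold changes ranged from -0.16 to 0.010 for *Tlr1*, -0.19 to 0.12 for *Tlr3*, -0.19 to 0.035 for *Tlr4*, -0.16 to 0.051 for *Tlr6* and -0.12 to 0.16 for *Tlr7*, and with the GC correction as well from -0.24 to -0.16, -0.38 to -0.21, -0.39 to -0.32, -0.26 to -0.091 and -0.25 to -0.14 (for *Tlr7* -0.22, -0.25 and -0.14 without WT replicates 1 to 3, and -0.20, -0.15 and -0.25 without KO replicates 1 to 3). The number of receptors past the limits was 0, also with each library left out, 1 with the GC correction and DESeq2, and 0 to 1 with the GC correction and a library left out (1 without KO replicate 1). Over all genes that number was 1, with 126 by DESeq2, 3 with the GC correction, 339 with both, 118 with the GC correction at an adjusted p under 0.05, and 0 to 2 with libraries left out (2 without KO replicate 1), or 1 to 89 with the GC correction as well (89 without KO replicate 1 and 4 without KO replicate 3). The causes were not tested. DESeq2 gave no adjusted p for *Tlr5*. The GC correction with libraries left out, the looser limit with it, and *Tlr1* and *Tlr6* as 1 feature were chosen after seeing the data.

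Deviations from the genotype mean had correlations of -0.215, 0.0766 and 0.166 between libraries with the same replicate number. Between libraries with unlike numbers they reached from -0.291 to 0.293. With 3 libraries centred on their own mean, these values cannot tell whether libraries were prepared as pairs. The labels give only the number. With the replicate block 0 receptors passed the limits, with adjusted p-values of 0.084 for *Tlr5* (log2 fold change -0.88) and 0.086 for *Tlr9* (-0.71).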

Other observations

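The remaining Toll-like receptors of the mouse, *Tlr11* and *Tlr12*, which bind a profilin of parasites, were too low to be tested. *Tlr11* had 6, 2 and 5 counts in the WT libraries and 8, 7 and 9 counts in the KO libraries. Every KO library was above every WT library, as for 16.9% of tested genes. The highest WT count of 6 and the lowest KO count of 7 were close, and WT library 2 was below the floor of 3 counts. *Tlr12* had 16, 9 and 2 counts in WT and 11, 7 and 5 counts in KO, with groups that overlapped.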
